A study of Mus musculus with 6 samples.

Results

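Corticosteroid receptors and classical glucocorticoid target genes were followed in the hypothalamus of mice lacking SRC-1. The set holds 10 of the 50559 genes in the deposited count table and was chosen by gene symbol: the receptors Nr3c1 and Nr3c2, and the 8 targets Fkbp5, Sgk1, Tsc22d3, Zbtb16, Pdk4, Map3k6, Plin4 and Errfi1. All 10 had enough counts to be tested. The series holds 6 RNA-seq libraries of hypothalamus, 3 labelled SRC1 KO and 3 labelled wild type (WT), and the labels give tissue and genotype alone for both groups. The labels and notes used here do not state age, sex, strain, housing, time of day or the part of the gene deleted. They also do not state whether a library is 1 animal or a pool. The p-values therefore measure the spread between these libraries, which may be technical.

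Glucocorticoid hormone, corticosterone in mice, crosses into the brain and binds a pair of nuclear receptors. Nr3c1 encodes the glucocorticoid receptor and Nr3c2 the mineralocorticoid receptor, which binds the same hormone more tightly. Bound receptor leaves its Hsp90 chaperones, enters the nucleus, binds glucocorticoid response elements as a dimer and recruits coactivators. SRC-1, encoded by Ncoa1, is a p160 coactivator of steroid receptors, and the hypothalamus is a site where these hormones feed back on the stress axis.

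The response elements that the receptors read were searched by their letters. The search covered each gene and 10000 bases on either side of it, in GRCm39, the build of the count table. The full palindrome was searched as the arm AGAACA, any 3 bases, and the arm TGTTCT. A relaxed form kept the first arm and the 3 bases and took TGTNCN as its other arm, and a core form had the arms GNACA and TGTNC around 3 bases. Both strands were read, and every full palindrome is also a match of the relaxed and the core form. Full palindromes were found at 3 places, 2 of them in Fkbp5 and 1 in Sgk1, or 2.59 per megabase of the 10 genes against 0.245 per megabase over the 20215 tested genes searched. Of windows of fixed length that reached 10000 bases to each side of a gene's outermost start, 0.356% of those of all tested genes and 0 of those of the 10 genes held the full palindrome. The relaxed form was also found 2 times in Zbtb16, and once each in Nr3c2 and in front of Pdk4. These 7 elements are shown because they are the closest matches to a response element at the 10 genes, in the direction of the gene, with the element in capitals and 10 bases of flank in lower case:

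Fkbp5, intron, chr17:28661383-28661417, minus strand: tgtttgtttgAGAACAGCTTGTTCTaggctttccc
Fkbp5, intron, chr17:28639285-28639319, minus strand: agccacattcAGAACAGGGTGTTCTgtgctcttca
Sgk1, intron, chr10:21869590-21869624, plus strand: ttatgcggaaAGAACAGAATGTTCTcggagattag
Zbtb16, intron, chr9:48687114-48687148, minus strand: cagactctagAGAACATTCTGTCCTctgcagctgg
Zbtb16, intron, chr9:48648891-48648925, minus strand: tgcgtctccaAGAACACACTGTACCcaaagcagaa
Pdk4, before the gene, chr6:5502569-5502603, minus strand: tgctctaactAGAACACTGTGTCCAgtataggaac
Nr3c2, intron, chr8:77928618-77928652, plus strand: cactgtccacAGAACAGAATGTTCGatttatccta

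No match of the relaxed form was found within these bounds at Nr3c1, Tsc22d3, Map3k6, Plin4 or Errfi1, which says only that these letters are not in the windows searched. Over the 10 genes the relaxed form came to 6.04 per megabase, against 3.94 over all tested genes, and the core form to 29.3 per megabase, against 17.8. In the windows of fixed length, 1 of the 10 genes and 7.445% of all tested genes held the relaxed form, and 5 of the 10 and 28.83% held the core form. Counted over the whole gene and its flanks, the core form was found at 9 of the 10 genes, all but Tsc22d3. It was present 7 times each at Fkbp5 and Zbtb16, 6 times at Nr3c2, 5 times each at Sgk1 and Plin4, and once at each of the other 4.

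Promoters from 250 bases before to 50 bases after a start were taken from RefSeq, on GRCm38.p6, an older build than that of the count table. They matched 8 of the 10 genes by symbol, all but Nr3c1 and Zbtb16. The full palindrome was found in 3 of 32851 promoters of the table, a share of 0.009%, and 1 of those 3 was 1 of the 6 promoters of Sgk1. That promoter is shown because it holds the same element as the Sgk1 line above. Capitals mark TGTTCT or its reverse complement, and the last 2 capital runs are the palindrome:

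Sgk1 promoter, GRCm38.p6, chr10:21993640-21993939, plus strand: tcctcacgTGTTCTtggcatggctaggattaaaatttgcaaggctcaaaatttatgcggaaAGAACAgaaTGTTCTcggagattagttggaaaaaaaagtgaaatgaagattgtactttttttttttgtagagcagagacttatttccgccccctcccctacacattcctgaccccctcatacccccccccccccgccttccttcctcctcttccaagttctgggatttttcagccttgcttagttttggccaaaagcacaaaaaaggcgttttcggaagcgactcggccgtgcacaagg

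The Map3k6 promoter held the core form, as did 0.475% of all promoters in the table. A match of letters is a description of the genome and not a measure of receptor binding in these libraries.

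The deleted gene and the identity of the tissue were checked first. Ncoa1 had 40.3, 37.25 and 38.7 CPM (library-scaled counts, with TMM normalisation) in SRC1 KO libraries 1 to 3, against 127, 122 and 130 CPM in WT libraries 1 to 3, so every library matched its label (log2 fold change -1.71 ± 0.065, adjusted p 1.868e-06 in edgeR). Totals ran from 39341074 to 46755553 counts in the SRC1 KO and from 36613507 to 42191925 counts in WT. The Y-linked genes Ddx3y and Uty averaged 86.5 and 27.0 CPM in the SRC1 KO, against 81.5 and 26.6 CPM in WT. Male tissue was thus present in both groups, and whether female tissue was also present was not tested. The summed level of 12 neuron markers was 6719 to 7493 CPM in the SRC1 KO and 6303 to 6928 CPM in WT, and the hypothalamic peptide gene Avp was present in all libraries at 32.2 to 78.3 CPM in the SRC1 KO and 24.6 to 150.0 CPM in WT. Over all genes, edgeR's quasi-likelihood test with Benjamini-Hochberg adjusted p under 0.05 called 49 genes higher and 120 lower in the SRC1 KO, or 0.242% and 0.592% of the 20257 tested.

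None of the 10 genes passed that test, while all 8 targets had lower mean levels in the SRC1 KO and the receptors' log2 fold changes (SRC1 KO over WT) were -0.09 for Nr3c1 and 0.14 for Nr3c2. The sign was negative for 9 of the 10 and for 48.9% of all genes tested. The median of the 8 targets was -0.81, against 0.0042 over all genes, and 3.88% of all genes were at or under it. At an unadjusted p under 0.05 there were 3 of the 10, Fkbp5, Zbtb16 and Map3k6, all lower. At that threshold 7.21% of all genes were lower and 5.75% higher. DESeq2 called 2 of the 10 lower, Fkbp5 and Map3k6, where it called 2.54% of all genes lower. limma-voom called 0 of the 10, where it called 0.4% of all genes lower, and with weights for sample quality it also called 0, with 1.31% of all genes lower. edgeR was also fitted with another scaling, another filter or fewer libraries. Of these fits, leaving out WT replicate 1 called Zbtb16 and Map3k6 (0.261% of all genes lower), and no expression filter called Map3k6 (1.69%). Leaving out both first replicates, a fit added after the data were seen, called Zbtb16 (0.113%). The groups did not overlap for Fkbp5, Map3k6 and Plin4, with the SRC1 KO lower, as for 9.03% of all genes tested. None of the 10 stood wholly above WT. Below, log2 fold changes are SRC1 KO over WT with their SE, and adjusted p is from edgeR's quasi-likelihood test over all genes.

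**Figure D1:**
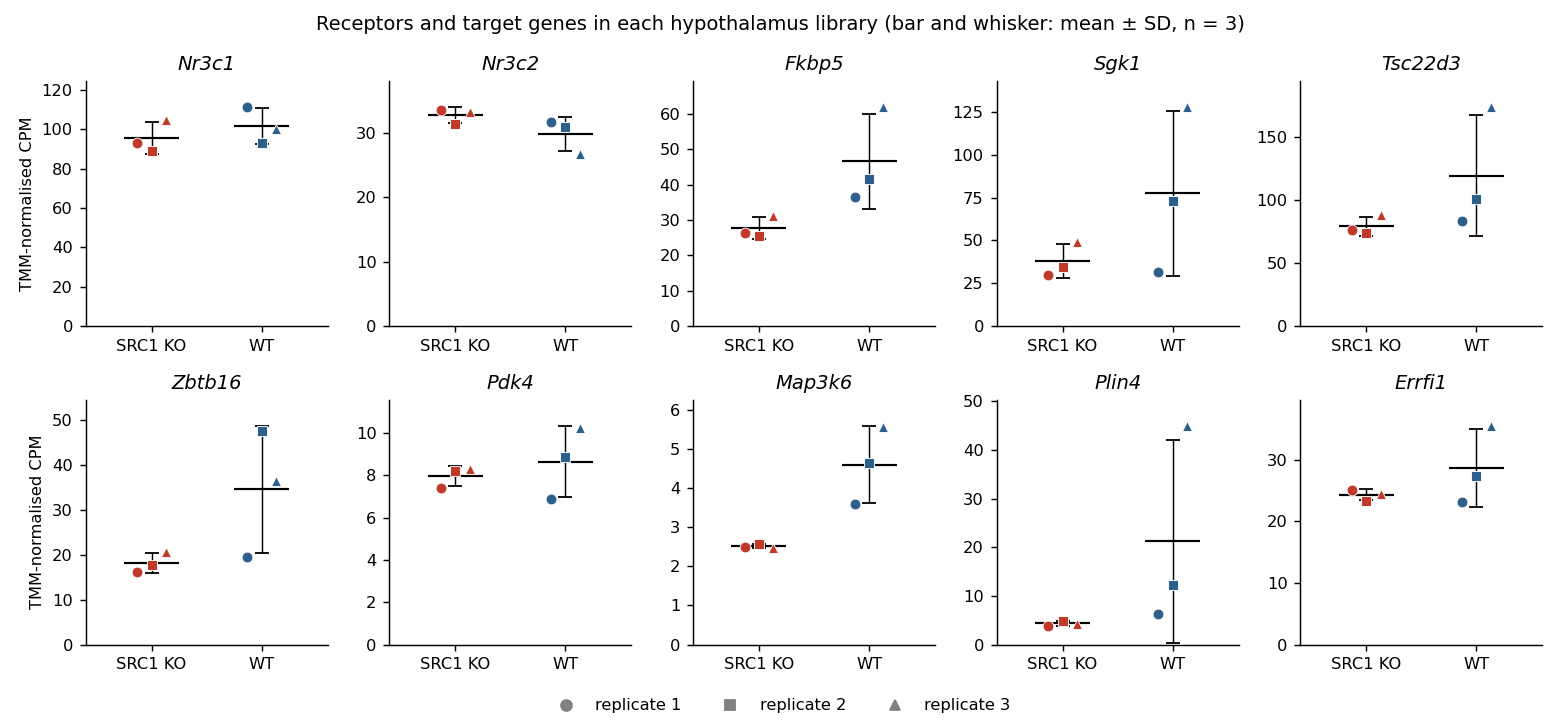
Level of each of the 10 genes in every library, as TMM-normalised CPM on linear axes from 0, with 3 SRC1 KO libraries left and 3 WT libraries right (marker shape: replicate number; line and whisker: mean ± SD). WT replicate 3 is the highest library for 7 of the 8 targets, and WT replicate 1 is the lowest WT library for all 8.

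Nr3c1 (chromosome 18, 39543598 to 39652485, minus strand, GRCm39) had 93.1, 88.7 and 104 CPM in the SRC1 KO, against 111, 92.9 and 100.3 CPM in WT. The groups overlapped, and the log2 fold change of -0.09 ± 0.086 did not pass (adjusted p 0.763). Nr3c2 (chromosome 8, 77624711 to 77971641, plus strand) had 33.6, 31.35 and 33.3 CPM in the SRC1 KO, against 31.6, 30.9 and 26.7 CPM in WT. Its lowest library was WT replicate 3, the library in which most targets were highest, and its log2 fold change was 0.14 ± 0.080 (adjusted p 0.533).

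Levels can be compared between genes only per exon length, here as RPKM, which is CPM divided by the exon length in kilobases. On that scale Nr3c1 averaged 10.9 ± 0.927 RPKM in the SRC1 KO and 11.6 ± 1.05 RPKM in WT, and Nr3c2 averaged 3.65 ± 0.135 RPKM in the SRC1 KO and 3.32 ± 0.293 RPKM in WT (SD, n = 3 each). The ratio of Nr3c1 to Nr3c2 was 2.84, 2.90 and 3.22 in the SRC1 KO, against 3.60, 3.08 and 3.85 in WT. The WT replicate 2 ratio lay inside the range of the SRC1 KO, so the groups overlapped. This ratio was not tested.

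Fkbp5 encodes FKBP51, a co-chaperone on Hsp90 that lowers the receptor's affinity for hormone, and its induction is a feedback loop on the receptor. Fkbp5 (chromosome 17, 28617727 to 28705123, minus strand), which holds 2 of the full palindromes shown above, had 26.2, 25.5 and 31.25 CPM in the SRC1 KO, against 36.4, 41.5 and 61.9 CPM in WT. Every SRC1 KO library was under every WT library, and the SRC1 KO mean was 59.3% of the WT mean. The log2 fold change was -0.75 ± 0.21 and did not pass in edgeR's unblocked test (adjusted p 0.214), with an adjusted p of 0.00047 in DESeq2 and 0.126 in limma-voom. Without WT replicate 3 the log2 fold change was -0.49 (edgeR adjusted p 0.068).

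Sgk1 and Map3k6 encode kinases. Sgk1, a serine and threonine kinase that acts on ion channels and transporters, is induced by both receptors. Sgk1 (chromosome 10, 21758083 to 21875802, plus strand) had 29.9, 34.7 and 48.95 CPM in the SRC1 KO, against 31.3, 73.2 and 128 CPM in WT. WT replicate 1 lay among the SRC1 KO libraries while the other WT libraries were above all of them. WT libraries differed among themselves by 4.09-fold, against 1.64-fold within the SRC1 KO, and the log2 fold change of -1.03 ± 0.59 did not pass (adjusted p 0.595). It was -0.46 without WT replicate 3.

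Map3k6, also called ASK2, is a stress-activated kinase upstream of MAP kinases. Map3k6 (chromosome 4, 132965290 to 132980240, plus strand) was the lowest of the 10 genes, with 2.502, 2.57 and 2.48 CPM in the SRC1 KO, from 102 to 113 counts a library, against 3.58, 4.65 and 5.56 CPM in WT, from 146 to 231 counts. The 3 SRC1 KO libraries were within 1.04-fold of each other and all under the WT range. Its log2 fold change was -0.87 ± 0.18, with the lowest adjusted p of the 10 (0.0583). It passed in edgeR without WT replicate 1 (adjusted p 0.0467) and with no expression filter (0.000946), and in DESeq2 (0.00522). Exons of the pseudogene Fcnc-ps cover 18.2% of its exon bases, where counting without strand cannot tell them apart, while no other gene of the 10 shares over 2.07%.

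Tsc22d3 and Zbtb16 encode transcriptional regulators. Tsc22d3, or GILZ, is a leucine zipper protein that carries part of the anti-inflammatory action of glucocorticoids. Tsc22d3 (chromosome X, 139440277 to 139501271, minus strand) had 76.5, 73.7 and 88.1 CPM in the SRC1 KO, against 83.1, 101 and 174 CPM in WT. WT replicate 1 was inside the SRC1 KO range, and WT replicate 3 was 2.09 times WT replicate 1. The log2 fold change was -0.59 ± 0.31 (adjusted p 0.537), and -0.21 without WT replicate 3.

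Zbtb16, or PLZF, is a zinc finger transcription factor that mostly represses its targets. Zbtb16 (chromosome 9, 48563097 to 48747525, minus strand) had 16.1, 17.6 and 20.6 CPM in the SRC1 KO, against 19.5, 47.6 and 36.4 CPM in WT. It was the 1 target whose highest library was WT replicate 2, and WT replicate 1 again lay inside the SRC1 KO range. The log2 fold change was -0.93 ± 0.35 (adjusted p 0.383). It was -1.21 without WT replicate 1, where it passed (adjusted p 0.0135), and -0.63 without WT replicate 2 (0.464).

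Errfi1, or MIG-6, is a feedback inhibitor of the EGF receptor. Errfi1 (chromosome 4, 150938253 to 150953346, plus strand) had 25.2, 23.4 and 24.4 CPM in the SRC1 KO, against 23.1, 27.4 and 35.5 CPM in WT. WT replicate 1 was under all SRC1 KO libraries and the other WT libraries were above them. The log2 fold change was -0.24 ± 0.14 (adjusted p 0.563), and -0.05 without WT replicate 3.

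Pdk4 and Plin4 belong to fuel metabolism. Pdk4 encodes a kinase that shuts down pyruvate dehydrogenase and so spares glucose. Pdk4 (chromosome 6, 5483351 to 5496278, minus strand) had 7.41, 8.19 and 8.31 CPM in the SRC1 KO, against 6.86, 8.85 and 10.2 CPM in WT. It differed least of the 8 targets, with a log2 fold change of -0.12 ± 0.15 (adjusted p 0.824) and of 0.02 without WT replicate 3, the 1 case with a positive sign among the targets when single libraries were left out.

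Plin4 encodes a perilipin that coats lipid droplets. Plin4 (chromosome 17, 56407587 to 56416947, minus strand) had 3.86, 4.79 and 4.32 CPM in the SRC1 KO, from 162 to 197 counts a library, against 6.25, 12.3 and 44.95 CPM in WT, from 255 to 1868 counts. Every SRC1 KO library was under every WT library, and WT libraries spanned 7.19-fold. The log2 fold change was the largest of the 10 in size, -2.29 ± 0.88, and did not pass (adjusted p 0.399), with -1.10 without WT replicate 3 (0.15).

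**Figure D2:**
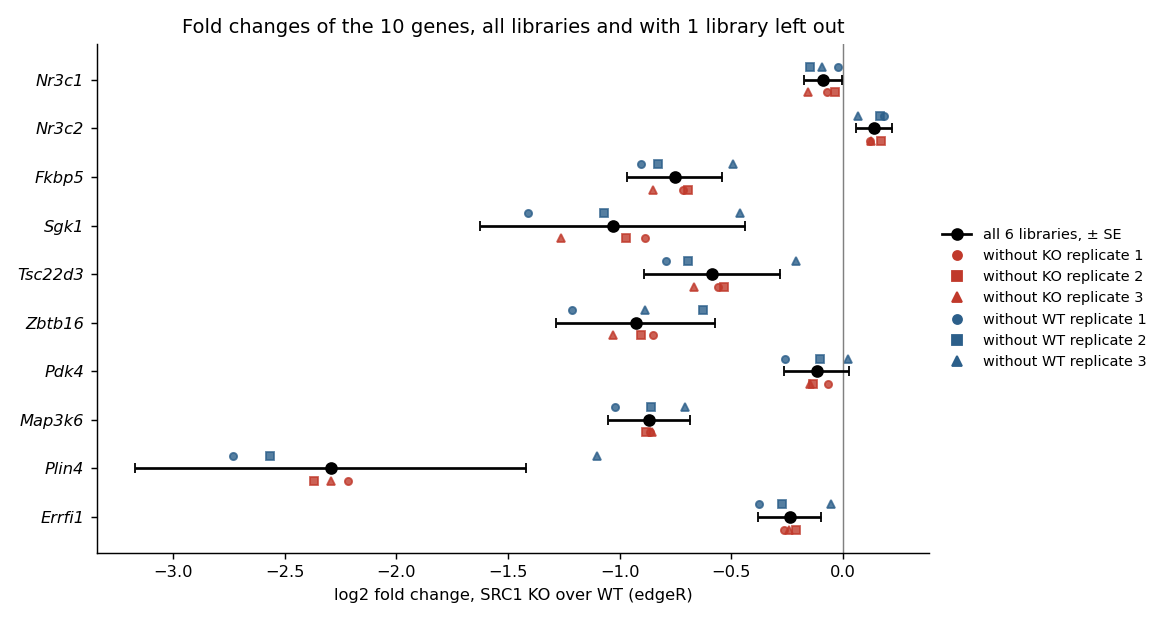
Log2 fold change of each gene, SRC1 KO over WT, from edgeR with all 6 libraries (black, ± SE) and with each library left out in turn (red: without an SRC1 KO library; blue: without a WT library; shape: replicate number). For 7 of the 8 targets the value nearest 0 is the one without WT replicate 3; for Zbtb16 it is the one without WT replicate 2.

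Tsc22d3 was the highest of the 10 genes, at 18.9 ± 1.82 RPKM in the SRC1 KO and 28.4 ± 11.47 RPKM in WT, and Map3k6 the lowest, at 0.351 ± 0.00679 RPKM in the SRC1 KO and 0.641 ± 0.138 RPKM in WT. In the SRC1 KO the order below Tsc22d3 was Nr3c1, Sgk1, Errfi1, Fkbp5, Nr3c2, Pdk4, Zbtb16 and Plin4. There Sgk1 at 7.18 to 11.8 RPKM overlapped both Nr3c1 at 10.1 to 11.9 RPKM and Errfi1 at 6.96 to 7.49 RPKM, and the ranges of Errfi1 and Fkbp5 overlapped, as did those of Pdk4 and Zbtb16. In WT the order was Sgk1, Fkbp5, Nr3c1, Errfi1, Zbtb16, Nr3c2, Plin4 and Pdk4. The WT range of each gene in that list overlapped the range of the next, except that Nr3c1 at 10.62 to 12.7 RPKM was just above Errfi1 at 6.88 to 10.58 RPKM, and that Errfi1 was above Zbtb16 at 2.38 to 5.799 RPKM. In bulk tissue such as this, fewer cells of a type and less RNA per cell cannot be told apart.

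The libraries of 1 genotype did not vary alike. The SD of log2 CPM was larger among WT than among SRC1 KO libraries for all 8 targets, with a median over the targets of 0.145 in the SRC1 KO and 0.475 in WT. Over all genes tested the medians were 0.127 in the SRC1 KO and 0.135 in WT, and 53.3% of genes had the larger SD in WT. An SD among WT libraries as large as that of Plin4 was found in 0.661% of tested genes, as large as that of Sgk1 in 1.5%, of Zbtb16 in 4.58% and of Tsc22d3 in 7.19%. For the other 4 targets the shares were larger, from 14.3% for Fkbp5 to 23.5% for Pdk4. Nr3c1 had an SD of 0.121 in the SRC1 KO and 0.129 in WT, and Nr3c2 0.0539 in the SRC1 KO and 0.131 in WT, near the median of all genes in WT.

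**Figure D3:**
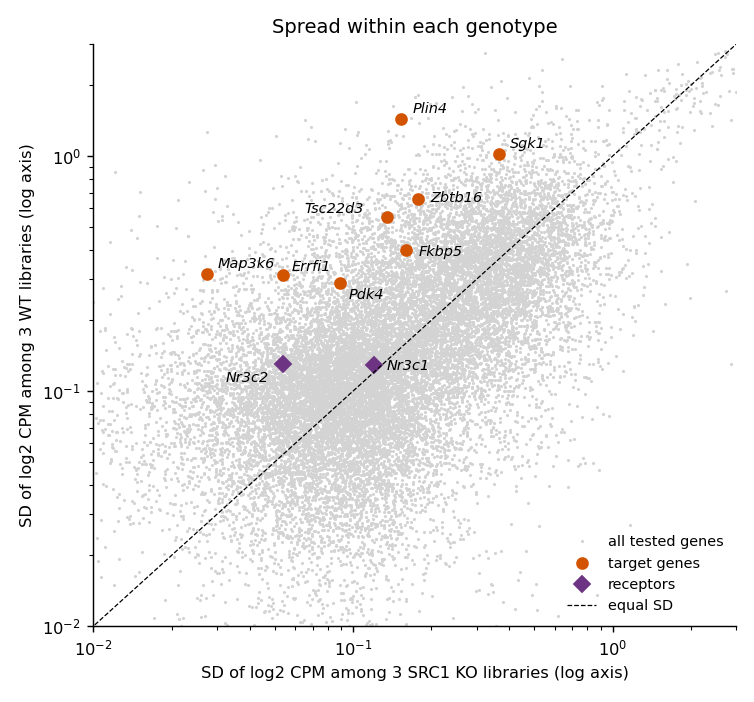
SD of log2 CPM among the 3 SRC1 KO libraries (x axis) and among the 3 WT libraries (y axis), both on log axes, for all tested genes (grey), the 8 targets (orange) and the receptors (purple). All targets lie above the line of equal SD, and Nr3c1 lies close to it; the axes do not reach the most extreme genes.

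The spread within WT followed the same libraries from gene to gene. The 8 targets, each centred on its mean log2 CPM over the 6 libraries, averaged -0.47, -0.39 and -0.25 in SRC1 KO libraries 1 to 3, against -0.23, 0.39 and 0.95 in WT libraries 1 to 3. On that mean WT replicate 1 stood beside SRC1 KO replicate 3. WT replicate 1 lay inside the SRC1 KO range for 3 targets (Sgk1, Tsc22d3, Zbtb16), above it for 3 (Fkbp5, Map3k6, Plin4) and below it for 2 (Pdk4, Errfi1). WT replicate 3 was the highest WT library for 7 of 8 targets and WT replicate 1 the lowest for 8 of 8, where 35.1% and 29.9% of all tested genes had those libraries as their highest and lowest in WT. The median over the targets was -0.48 without WT replicate 3 and -0.96 without WT replicate 1, and ran from -0.85 to -0.78 when 1 SRC1 KO library was left out.

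Likeness of pattern is given as Pearson's r over the 6 libraries, as a description without a test, since the genes share those libraries and their depth. Each target's r with the mean of the other 7 targets was between 0.823 (Zbtb16) and 0.965 (Plin4). Nr3c1 had an r of 0.0847 with the mean of the 8 targets and Nr3c2 an r of -0.903. Genes outside the set with at least 5 CPM on average were ranked by r, leaving out clones, pseudogenes and bare identifiers. The 6 highest were Mertk (0.995), Fkbp9 (0.990), Fstl1 (0.987), Rin2 (0.982), Htra1 (0.981) and Fam3a (0.981). Mertk is also in the list of other glucocorticoid-induced genes read below. Mertk, a receptor for the engulfment of dying cells and myelin, had 19.9, 20.7 and 22.0 CPM in the SRC1 KO, against 21.5, 31.7 and 39.25 CPM in WT. Htra1, a secreted serine protease, had 68.2, 71.3 and 69.5 CPM in the SRC1 KO, against 68.0, 91.9 and 112 CPM in WT. None of the 6 passed in edgeR, with adjusted p from 0.329 for Rin2 to 0.737 for Fam3a.

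Other genes known to be induced by glucocorticoids, 20 in all, were read in the same libraries. This list, like the targets, was chosen with earlier results of these data known. It is therefore not an independent check of the targets. None of the 20 passed in edgeR, and 19 of the 20 log2 fold changes were negative, as for 48.9% of all genes tested. The median was -0.42, or -0.20 without WT replicate 3. At an unadjusted p under 0.05 there were 7, all lower, where 7.21% of all genes were lower. DESeq2 called 3 of the 20, Bcl6, Mertk and Gadd45g, where it called 2.54% of all genes lower. limma-voom called 0 with or without weights. WT replicate 3 was the highest of the 6 libraries for 18 of the 20 genes, as for 19.2% of all tested genes, and WT replicate 1 the lowest WT library for 19, as for 29.9% of all tested genes. The SD of log2 CPM was larger in WT for 16 of the 20, with medians of 0.152 in the SRC1 KO and 0.373 in WT.

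The genes with the lowest p in that list were Bcl6, Gadd45g, Per1 and Sult1a1. Bcl6, a transcriptional repressor of immune genes, had 17.6, 23.3 and 20.7 CPM in the SRC1 KO, against 25.8, 31.5 and 33.2 CPM in WT, with a log2 fold change of -0.56 ± 0.12 (adjusted p 0.0778). It passed in edgeR without WT replicate 1, without SRC1 KO replicate 2 and, as did the other 3 genes, with no expression filter. Per1, a clock gene that is also a direct receptor target, had 49.99, 58.8 and 59.5 CPM in the SRC1 KO, against 62.8, 67.6 and 78.7 CPM in WT (log2 fold change -0.31 ± 0.098, adjusted p 0.192). The growth arrest gene Gadd45g (-0.53 ± 0.15, adjusted p 0.15) and the sulfotransferase gene Sult1a1 (-0.55 ± 0.17, adjusted p 0.205) did not pass with the filter. Of these 4 genes all but Sult1a1 had groups that did not overlap, but the 4 were picked by their low p. Over the whole list the SRC1 KO lay under WT with no overlap for 7 of the 20 genes, against 9.03% of all genes tested. Gpd1, glycerol-3-phosphate dehydrogenase, was the 1 gene with a positive value (0.06 ± 0.32, adjusted p 0.963) and is named after its value was seen.

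**Figure D4:**
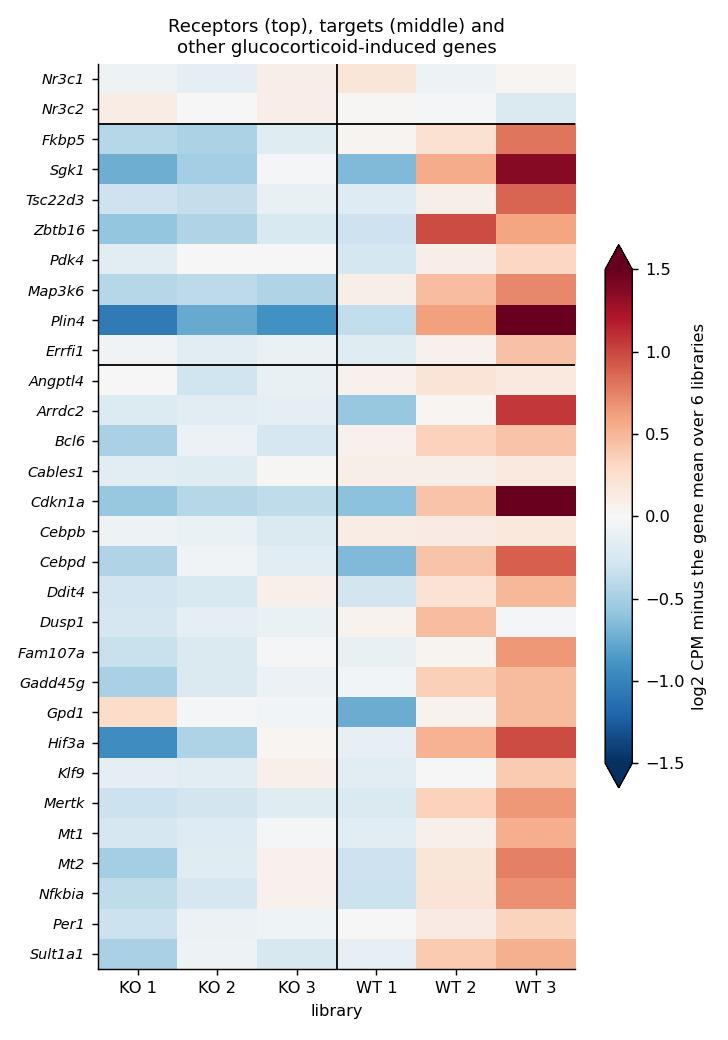
Log2 CPM of the receptors, the 8 targets and 20 other glucocorticoid-induced genes in each library, minus each gene's mean over the 6 libraries (red: above the mean; blue: below; colours saturate at 1.5). WT replicate 3 is the reddest column below the receptors, and WT replicate 1 is close to the SRC1 KO columns for most targets.

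Of 11 receptor chaperones none passed, with 0 at an unadjusted p under 0.05 and 0 in DESeq2 or limma-voom, and log2 fold changes ran from -0.06 to 0.07. Their summed level was 5232, 5177 and 5491 CPM in the SRC1 KO, against 5249, 5164 and 5602 CPM in WT, and the groups overlapped. The co-chaperone gene St13 had the lowest p of the list (0.07 ± 0.064, adjusted p 0.742), and Dnajb1, an Hsp40 co-chaperone, had -0.06 ± 0.059 (adjusted p 0.783). Among receptor coregulators Ncoa1 was the 1 of 11 that passed in edgeR, and it fell. limma-voom also called Ncoa1 alone, while DESeq2 and limma-voom with weights each called 2, Ncoa1 and Ppargc1a. Ppargc1a, or PGC-1 alpha, a coactivator of energy metabolism, had 63.65, 61.6 and 60.7 CPM in the SRC1 KO, against 41.0, 50.5 and 50.7 CPM in WT. It did not pass in edgeR (0.39 ± 0.087, adjusted p 0.0711). Ncoa3, a p160 coactivator like Ncoa1 (0.10 ± 0.11), and Smarca4, the SWI/SNF ATPase BRG1 (0.06 ± 0.072), had adjusted p of 0.8035 and 0.813.

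Of enzymes and pumps that set hormone access, none of the 4 tested genes passed, with 2 at an unadjusted p under 0.05 and 0 in DESeq2 or limma-voom, and the median log2 fold change was 0.14. Hsd11b1, which regenerates active hormone inside cells, had 14.75, 13.7 and 14.6 CPM in the SRC1 KO, against 10.9, 12.3 and 13.5 CPM in WT (0.23 ± 0.099, adjusted p 0.368). Srd5a1, a steroid reductase, had 16.3, 14.0 and 13.5 CPM in the SRC1 KO, against 11.5, 10.5 and 12.1 CPM in WT (0.36 ± 0.10, adjusted p 0.151). For both genes every SRC1 KO library was above every WT library, as for 8.58% of all genes tested. Abcb1a, an efflux pump of the blood-brain barrier (0.05 ± 0.091), and H6pd, which supplies Hsd11b1 with cofactor (0.04 ± 0.10), did not pass. Hsd11b2, which inactivates the hormone, was at 0.0953 to 0.202 CPM in the SRC1 KO and 0.0736 to 0.169 CPM in WT and was not tested.

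Peptides and receptors of the stress axis did not pass in edgeR, with 8 of 10 tested, 1 at an unadjusted p under 0.05, 0 in DESeq2 or limma-voom and 1 in limma-voom with sample quality weights. Crh, the releasing hormone that glucocorticoids repress in the paraventricular nucleus, had 2.41, 2.19 and 4.45 CPM in the SRC1 KO, against 3.63, 2.14 and 1.71 CPM in WT, and the groups overlapped. Its receptor gene Crhr1 had a log2 fold change of 0.37 ± 0.22 (adjusted p 0.579), and Crhr2 of -0.26 ± 0.15 (adjusted p 0.547). Ucn3, a peptide of the same family, stood at 0.74 ± 0.73 (adjusted p 0.778). Pomc, the precursor of corticotropin and melanocortins, had the lowest p of the list and its values were 6.46, 5.27 and 30.15 CPM in the SRC1 KO, against 77.05, 49.99 and 74.9 CPM in WT. Every SRC1 KO library was under every WT library, as for 9.03% of all genes tested. The log2 fold change of -2.26 ± 0.81 did not pass (adjusted p 0.375). Pomc lies on chromosome 12 (4004945 to 4010643), close to the deleted gene Ncoa1 (chromosome 12, 4297362 to 4569452). The part of that position in the Pomc values was not tested, nor was that of pituitary tissue, whose markers are given below.

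**Figure D5:**
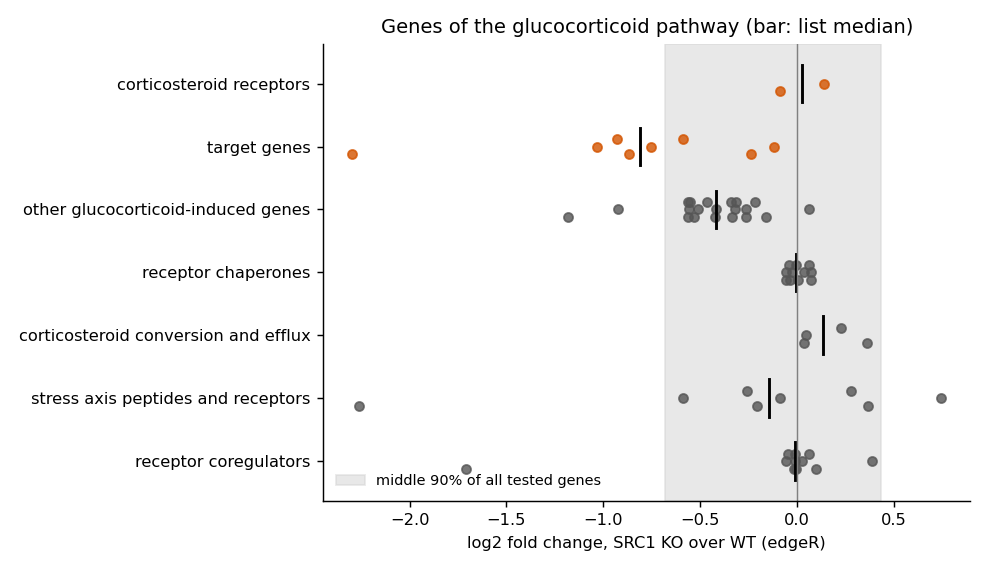
Log2 fold change, SRC1 KO over WT from edgeR, of each tested gene in the receptors, the targets and 5 other lists of the pathway (black bar: list median; grey band: the middle 90% of all tested genes, from -0.68 to 0.435). The targets have a median of -0.81 and the other induced genes of -0.42, while chaperones lie between -0.06 and 0.07.

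Markers of other cell types moved with genotype in the same libraries. Of 13 markers of ependymal cells and tanycytes 7 fell in edgeR, among them Gpr50 (-1.51 ± 0.15). Their summed level was 105.9 to 129.9 CPM in the SRC1 KO and 260.5 to 292.3 CPM in WT. Of 12 oligodendrocyte markers 6 rose, among them Opalin (1.00 ± 0.12) and Cldn11 (0.53 ± 0.091), with a sum of 6995 to 9326 CPM in the SRC1 KO and 4307 to 5514 CPM in WT. Of 12 meningeal fibroblast markers Lum fell (1.03, 1.16 and 0.942 CPM in the SRC1 KO, against 2.67, 4.225 and 1.95 CPM in WT), and their sum was 67.3, 67.3 and 69.0 CPM in the SRC1 KO, against 185, 323 and 70.6 CPM in WT. WT replicate 3, in which 7 of the 8 targets were highest, had the lowest meningeal sum of the WT libraries. Its sums were also the lowest in WT for endothelium (309.6 CPM) and mural cells (162.2 CPM). They were the highest in WT for ependymal cells and tanycytes (292.3 CPM), pituitary (46.6 CPM) and oligodendrocyte precursors (434 CPM). The same held for neurons (6928 CPM), astrocytes (4906 CPM) and microglia (296.2 CPM). For oligodendrocytes, choroid plexus and blood, WT replicate 3 lay between the other WT libraries.

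Other marker sums overlapped between the groups, except those of the choroid plexus. The 12 endothelial markers summed to 323.5 to 354 CPM in the SRC1 KO and 309.6 to 343 CPM in WT, the 10 mural cell markers to 211 to 229 CPM in the SRC1 KO and 162 to 242.5 CPM in WT, and the 12 astrocyte markers to 4466 to 4869 CPM in the SRC1 KO and 4785 to 4906 CPM in WT. Microglial markers summed to 279 to 318 CPM in the SRC1 KO and 271 to 296 CPM in WT, precursors of oligodendrocytes to 418.5 to 469 CPM in the SRC1 KO and 407 to 434 CPM in WT, blood cells to 63.3 to 129 CPM in the SRC1 KO and 38.2 to 91.85 CPM in WT. The pituitary sum also overlapped, at 23.2 to 42.9 CPM in the SRC1 KO and 25.1 to 46.6 CPM in WT, while for 5 of the 8 tested markers the SRC1 KO lay under WT with no overlap. Among the 8, Pitx1, a pituitary transcription factor, fell (0.0715 to 0.0877 CPM in the SRC1 KO, against 0.907 to 1.3 CPM in WT, adjusted p 0.00392), 5 were lower at an unadjusted p under 0.05, and the median log2 fold change was -1.63. Cga, the shared subunit of pituitary glycoprotein hormones, had 0.0252 to 0.357 CPM in the SRC1 KO and 4.51 to 12.1 CPM in WT (adjusted p 0.056). The choroid plexus sum was 62.5 to 85.5 CPM in the SRC1 KO and 91.2 to 122 CPM in WT. Of all these markers 1 had 0 counts in a whole group, the pituitary gene Fshb in the SRC1 KO. The part of these cell types in the target gene values was not tested.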

How the data were processed

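RNA of hypothalamus was measured in 3 SRC1 KO and 3 WT libraries, made with TruSeq chemistry per the labels' protocols. The deposited file gives whole-number counts per gene, with no normalization, for all libraries. Alignment used STAR 2.7.10a, per the submitters' processing notes. Exons were counted with featureCounts on the mm39 RefSeq annotation, per the file headers, which give version 2.0.0 where the processing notes give 2.0.3. No option for strand or for multiply mapped reads appears in the header's command, so overlapping genes on opposite strands cannot be told apart. Columns were matched to samples by library codes, with 0 unused value columns and 0 rows without a gene name. Within a group, library pairs differed by a chi-square per degree of freedom of 8.87 to 18.9, so none was a repeat of another.

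The whole table was fitted in R 4.3.3 with edgeR 4.0.16 (TMM scaling, default expression filter with a minimum count of 10, robust quasi-likelihood tests, Benjamini-Hochberg adjusted p under 0.05). SE was taken as the size of the log2 change over the root of its F statistic, and the common biological coefficient of variation was 12.3%. Log2 CPM used a prior count of 2. DESeq2 1.42.0, limma-voom (limma 3.58.1), other scalings and filters, and fits with libraries left out were alternatives.

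The labels do not say that replicate numbers pair the libraries, and the main fit did not pair them. Deviations of same-numbered libraries correlated at -0.206, 0.351 and 0.224, and those of other pairs at -0.413 to 0.255. With 3 libraries per group these values cannot decide whether the numbers pair the libraries.

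The genes, the lists and the tests were chosen with earlier results of these data known. Named were the 10 genes, Ncoa1, up to 4 genes of lowest p per pathway list and 2 per marker list described with a change, and the 6 genes most alike in pattern. Avp, Crh, Gpd1, Fshb, Ddx3y, Uty and genes listed as called by another tool were named outside that rule. A marker gene that this rule names is not reported here.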

Additional observations from a re-analysis of the deposited data

How the results depend on the processing

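With 1 library left out in turn, the number of the 10 genes called ran from 0 to 2, that of all genes called from 36 (without SRC1 KO replicate 1) to 260 (without SRC1 KO replicate 2), with 69 without WT replicate 1, and that of the 20 other induced genes called from 0 to 2. Of the 10 genes, 2 were called without WT replicate 1 (Zbtb16, Map3k6), 2 in DESeq2 (Fkbp5, Map3k6) and 1 with no filter (Map3k6). The fit without both first replicates called 1 of the 10 (Zbtb16) and was added after the data were seen. Of the 20 other induced genes, 4 were called with no filter and 3 in DESeq2. All genes called numbered 966 with no filter, 821 in DESeq2, 401 in limma-voom with sample quality weights, 103 in limma-voom, 84 with the stricter filter of at least 1 CPM in 3 libraries, 66 with library totals alone and 29 without both first replicates. The replicate block, with numbers not known to pair the libraries, called 155 genes, 1 of the 10 (Fkbp5, adjusted p 0.0453) and 2 of the 20 others.

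The sign of each target's log2 fold change was negative in all 15 alternatives, except for Pdk4 without WT replicate 3 (0.02). Ncoa1 passed in all 15, with log2 fold changes from -1.74 to -1.68. Scaling by size factors or by library totals moved the median of all genes by under 0.1. Counts of Map3k6 and, in the SRC1 KO, of Plin4 were the lowest of the set and limit their precision.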
